A study of Rattus norvegicus albus with 6 samples.

Results

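Endothelial cell markers are genes whose transcripts are concentrated in the cells that line blood vessels. Of 10 such genes listed for rat hepatic stellate cell cultures, 5 had a probe set annotated with that symbol alone, and all 5 are described here, among 14322 named genes on the arrays. Erg encodes an ETS-family transcription factor that maintains endothelial identity, Flt1 encodes VEGF receptor 1, Tek and Tie1 encode the receptor pair of the angiopoietin system, and Cdh5 encodes VE-cadherin of endothelial junctions. The other 5 were not analysed here: Kdr (VEGF receptor 2), Pecam1 (the adhesion molecule CD31), Eng (the co-receptor endoglin), Vwf (von Willebrand factor) and Stab2 (a scavenger receptor of liver sinusoids). Each measured gene had 1 probe set.

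In the liver sinusoid, stellate cells wrap around the endothelium as its pericytes, and the cell types signal to each other through VEGF ligands, angiopoietins and the BMP family. Flt1 binds VEGF-A, VEGF-B and placental growth factor, and its soluble form traps them. Tek binds angiopoietins, and Tie1, for which angiopoietins are not the direct ligand, modulates it. Stellate cells in culture and endothelial cells carried along at isolation can both supply such transcripts.

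The cells were primary stellate cells from rats, grown for 7 days on plastic in medium with 10% serum and described as fully activated. Ad.DKK-1, an adenovirus carrying the secreted Wnt antagonist DKK-1, was compared with Ad.GFP, the same kind of virus carrying green fluorescent protein; both were used at 200 infectious units per cell for 24 h in 5% serum, with a further 24 h without serum. ICG-001 (10 µM), an inhibitor of the β-catenin and CBP interaction, and FJ9 (200 µM), an inhibitor of the Frizzled and Dishevelled interaction, were each given for 24 h without serum and compared with their own vehicle. Each of the 6 groups was a single array, its RNA a pool of 3 to 4 rats. No single difference therefore has a replicate check. The 3 treatment comparisons share no array, and the comparison of the vehicle arrays shares one with ICG-001 and one with FJ9.

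Levels are log2 expression, and differences subtract a treatment's own control from it on that scale unless stated. The array medians over all probe sets lay between 7.01 and 7.28, and the median of the ICG-001 array differed by −0.17 from that of its vehicle. Of 20 measured stellate cell markers, 18 had a mean over the 6 arrays above the level filter (the lowest 30% of mean levels). The mean level of these 20 was 9.90 to 10.23 on treated and 10.68 to 10.99 on control arrays. The rat Dkk1 probe set read 6.01 on the Ad.DKK-1 array and 5.85 on the Ad.GFP array, under the level filter, and the species of the DKK-1 insert is not stated in the labels.

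Erg and Flt1 read lower under all 3 treatments, while Tek and Cdh5 differed in sign between treatments and Tie1 differed by less. Erg read 6.36 on the Ad.DKK-1 array against 8.20 on Ad.GFP, 5.51 on the ICG-001 array against 7.08 on its vehicle, and 6.42 on the FJ9 array against 8.28 on its vehicle. Every treated array was below every control array, and the ICG-001 array was the lowest of all 6. The differences were −1.85 for Ad.DKK-1, −1.56 for ICG-001 and −1.86 for FJ9, which are 3.60-fold, 2.96-fold and 3.63-fold lower readings. The treated readings lay within the range of genes whose tissue is absent from the culture (9, 21 and 12 of 25 such genes read at or above Erg), so these folds compare readings and do not measure how far the transcript fell. The Erg reading also depended on the control pool: the vehicle of FJ9 read 1.20 higher than the vehicle of ICG-001, 2.30-fold. Against the other vehicle, Erg differed by −2.76 for ICG-001 and by −0.66 for FJ9. Both values stayed lower and past 1.5-fold, and their size depended on which vehicle array was used.

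Flt1 read 7.95 on the Ad.DKK-1 array against 9.66 on Ad.GFP, 8.83 on the ICG-001 array against 10.09 on its vehicle, and 8.60 on the FJ9 array against 10.06 on its vehicle. The treated and control arrays did not overlap here either, and the lowest array was Ad.DKK-1. The differences were −1.71, −1.26 and −1.46 in the order Ad.DKK-1, ICG-001 and FJ9, or 3.26-fold, 2.39-fold and 2.75-fold lower. In contrast to Erg, the vehicle arrays differed by only −0.03 for Flt1 (FJ9's vehicle minus ICG-001's). The control arrays together spanned 0.43 for Flt1 and 1.20 for Erg. In these pooled samples, fewer cells of a type and less RNA per cell cannot be told apart.

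**Figure D1:**
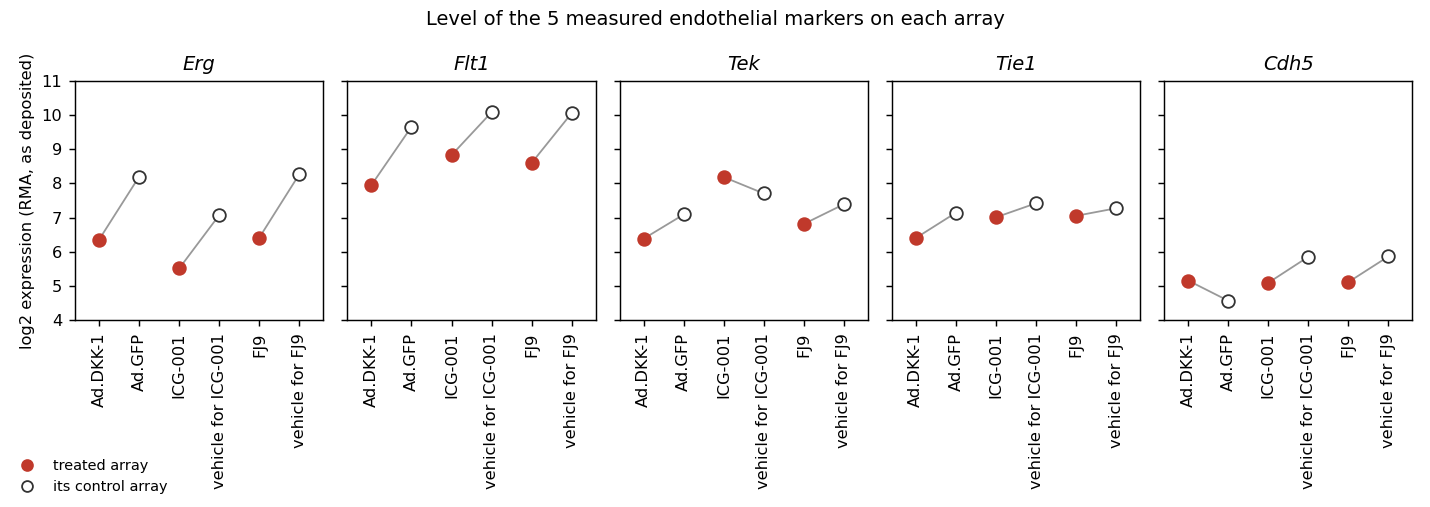
Log2 expression of Erg, Flt1, Tek, Tie1 and Cdh5 on the 6 arrays, with 1 point per array, filled for treated arrays and open for controls, and a line joining each treated array to its own control. The highest treated value was 6.42 against a lowest control of 7.08 for Erg, and 8.83 against 9.66 for Flt1.

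Tek, the angiopoietin receptor also called Tie2, differed in both directions. It read 6.38 on the Ad.DKK-1 array against 7.09 on Ad.GFP, 8.19 on the ICG-001 array against 7.71 on its vehicle, and 6.81 on the FJ9 array against 7.39 on its vehicle. The ICG-001 array was thus the highest of the 6 and the Ad.DKK-1 array the lowest. The differences were −0.71, 0.48 and −0.58, and the FJ9 value, 1.49-fold, fell just short of 1.5-fold. The vehicle arrays differed by −0.31 (FJ9's minus ICG-001's), so the ICG-001 difference became 0.79 and passed 1.5-fold against the other vehicle. It passed 1.5-fold as a higher value after centring each array on its median too.

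Tie1, the partner receptor of Tek, had the narrowest control range of the 5 genes, 0.28. It read 6.40 on the Ad.DKK-1 array against 7.14 on Ad.GFP, 7.01 on the ICG-001 array against 7.42 on its vehicle, and 7.05 on the FJ9 array against 7.27 on its vehicle. All treated arrays lay below all controls, as with Erg and Flt1, but the differences were small at −0.74, −0.41 and −0.22. The vehicle arrays differed by −0.15 (FJ9's minus ICG-001's), close to the FJ9 difference.

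Cdh5 was the only measured member under the level filter. It read 5.16 on the Ad.DKK-1 array against 4.57 on Ad.GFP, 5.09 on the ICG-001 array against 5.85 on its vehicle, and 5.11 on the FJ9 array against 5.86 on its vehicle. The lowest array was the control Ad.GFP, and the treated arrays lay between 5.09 and 5.16. The differences were 0.59, −0.76 and −0.75, the first of them only just past 1.5-fold at 1.51-fold, and the vehicle arrays differed by 0.01.

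**Figure D2:**
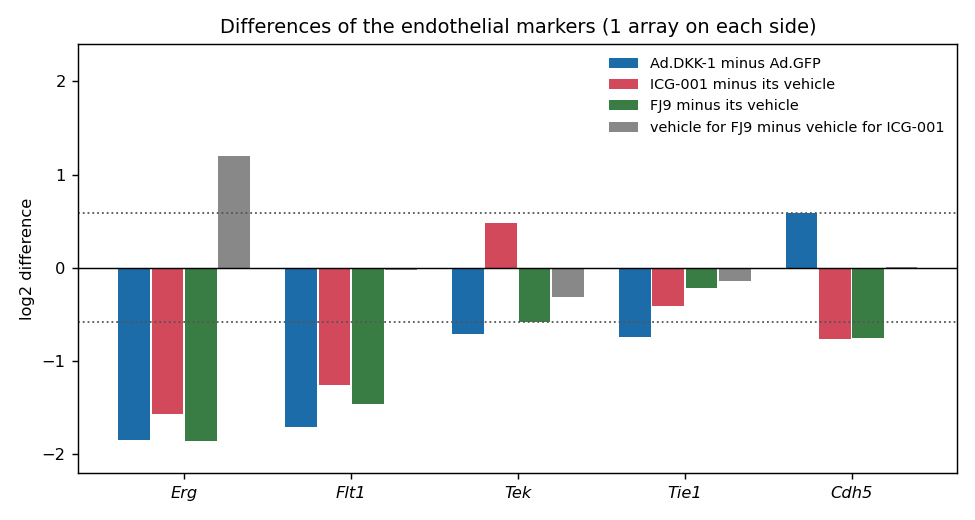
Log2 differences of the 5 measured markers for Ad.DKK-1 minus Ad.GFP, ICG-001 minus its vehicle, FJ9 minus its vehicle, and the vehicle of FJ9 minus the vehicle of ICG-001, each bar from 1 array on each side. Dotted lines mark 1.5-fold; the 3 treatment bars of Erg and of Flt1 lie below the lower line, and the vehicle bar of Erg reaches 1.20 above zero.

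Counted at 1.5-fold, 4 of 5 markers were lower and 1 higher under Ad.DKK-1, where 22.6% of all named genes were lower and 14.5% higher. Under ICG-001, 3 of 5 were lower and 0 higher, against 16.3% and 10.3% of all named genes. Under FJ9, 3 of 5 were lower and 0 higher, against 12.3% and 10.6% of all named genes. The median difference of the 5 markers was −0.74, −0.76 and −0.75, beside −0.09, −0.08 and 0.02 over all named genes. The first of these medians is the value of Tie1, and the other two are the values of Cdh5, which is under the level filter, so their likeness is no sign of a shared shift. Between the vehicle arrays, 1 of 5, Erg, was higher on FJ9's vehicle and 0 were lower, where 2.86% of named genes were higher and 7.84% lower. The backgrounds themselves shift with scaling. Centring each array on its median turned the split of all named genes to 2644 lower and 2632 higher for Ad.DKK-1, where it was 3236 and 2078 as deposited. For ICG-001 it became 1346 lower and 2626 higher, where it was 2337 and 1481, and for the vehicles 596 and 851, where it was 1123 and 410.

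Erg and Flt1 were the 2 of 5 markers at least 1.5-fold lower in all 3 treatments, as were 2.62% of all named genes. Flt1's weakest difference, −1.26, or one further down in every treatment was found for 63 of 14322 genes (0.440%), with Flt1 included by construction. Set at the least lowered value of each other marker, the share was 0.189% for Erg, 10.7% for Tie1, 64.7% for Tek and 73.4% for Cdh5. Treated levels lay below all control levels for 3 of 5 markers, Erg, Flt1 and Tie1, and for 11.9% of all named genes.

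The arrays allow 1 test, the average treated minus control difference, with the 3 pairs as a block and 2 residual degrees of freedom (limma over all named genes, two-sided, Benjamini-Hochberg adjusted). It asks whether a gene differs on average over 3 different treatments and says nothing of any treatment alone. Each gene's variance is moderated with that of genes of similar level, so the intervals rest on more than 2 degrees of freedom. By this test Erg fell, averaging 6.10 ± 0.50 on treated and 7.85 ± 0.67 on control arrays (SD over 3 arrays), a difference of −1.76 (SE 0.28, 95% interval −2.34 to −1.18, limma adjusted p = 0.000558), lower in 3 of 3 pairs. Flt1 fell as well, averaging 8.46 ± 0.45 on treated and 9.93 ± 0.24 on control arrays, a difference of −1.47 (SE 0.21, 95% interval −1.92 to −1.03, limma adjusted p = 0.000191), lower in 3 of 3 pairs. These are 2 of 5 markers, where 3.89% of all named genes passed as lower and 2.55% as higher; with median centring 269 genes passed as lower and 268 as higher, where 557 and 365 passed as deposited.

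The other 3 markers did not pass. Tie1 differed by −0.46 (95% interval −1.04 to 0.12, limma adjusted p = 0.369) and Tek by −0.27 (−0.88 to 0.34, limma adjusted p = 0.644), with Tek lower in 2 of 3 pairs. Cdh5 differed by −0.31 (−0.96 to 0.35, limma adjusted p = 0.617), also lower in 2 of 3 pairs. The lower ends of these intervals leave room for a difference as large as −1.04 for Tie1, −0.96 for Cdh5 and −0.88 for Tek.

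Probe sets differ in background and affinity, so a level does not rank the genes by RNA amount. A list of genes from tissues absent from the culture (pancreas, pituitary, testis, retina, kidney and others) shows what such probe sets read without their tissue: the median of its 25 measured genes was 5.82 to 6.75 on the 6 arrays. Flt1 was above 24 of these 25 readings on every array, including the treated ones. Erg was above 24 of 25 on the Ad.GFP array and on the vehicle of FJ9, and 10 of 25 were at or above it on the vehicle of ICG-001. On the treated arrays Erg lay within the range of these genes, as given above. Between 17 and 25 readings were at or above Cdh5, between 2 and 10 at or above Tek and between 4 and 9 at or above Tie1.

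Other pan-endothelial markers were mixed. Of 24 measured, 7 were at least 1.5-fold lower and 2 higher under Ad.DKK-1, 8 lower and 2 higher under ICG-001, and 6 lower and 0 higher under FJ9, with medians of −0.28, −0.38 and −0.21. Over all named genes the shares were 22.6% lower and 14.5% higher, 16.3% and 10.3%, and 12.3% and 10.6%, in the same order of treatments. The C-type lectin Clec14a differed by −0.14, −0.73 and −2.22 in the order Ad.DKK-1, ICG-001 and FJ9, the adhesion molecule Icam2 by −1.97, −0.71 and −0.80, and the surface receptor Cd93 by −1.98, −0.75 and −0.17. By the limma test across pairs 3 of 24 passed, all lower, where 3.89% of all named genes passed as lower. They were Icam2 (−1.16, limma adjusted p = 0.0316), Clec14a (−1.03, adjusted p = 0.0330) and the Notch receptor Notch4 (−0.88, adjusted p = 0.0437). Notch4 is named because it passed. Icam2 was under the level filter. None of these 3 calls held with median centring (adjusted p 0.0784, 0.153 and 0.0917), and without the FJ9 pair Clec14a differed by only −0.44, while without the DKK-1 pair Icam2 differed by −0.75. The mean level of the list was 6.72 to 7.10 on treated and 7.07 to 7.45 on control arrays.

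Markers of liver sinusoidal endothelium were mixed. Of 16 measured, 6 were lower and 1 higher under Ad.DKK-1, 5 lower and 2 higher under ICG-001, and 4 lower and 2 higher under FJ9, with medians of −0.39, −0.35 and −0.09, against the same all-gene shares (lower and higher: 22.6% and 14.5%, 16.3% and 10.3%, 12.3% and 10.6%). Kit, the stem cell factor receptor, read 6.90, 6.35 and 5.68 on the treated arrays against 8.91, 7.14 and 7.49 on their controls, in the order Ad.DKK-1, ICG-001 and FJ9, and fell across pairs by limma (−1.54, adjusted p = 0.00333), though not without the pair block (adjusted p = 0.0551). Oit3, named because it passed, differed by −1.01, −1.31 and −1.25 and fell across pairs (limma −1.19, adjusted p = 0.00507). The growth factor gene Bmp2 differed by 0.78, 1.40 and 1.45 and rose across pairs (limma 1.21, adjusted p = 0.00738). In all, 2 of 16 passed the limma test as lower and 1 as higher, where 3.89% and 2.55% of all named genes did. The thrombin receptor gene Thbd differed by −0.99, 0.70 and −2.25 and did not pass (the ICG-001 value was 0.17 against the other vehicle). The defining scavenger receptor genes Stab1 and Stab2 were not analysed here, and Lyve1, another marker of this endothelium, was under the level filter.

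**Figure D3:**
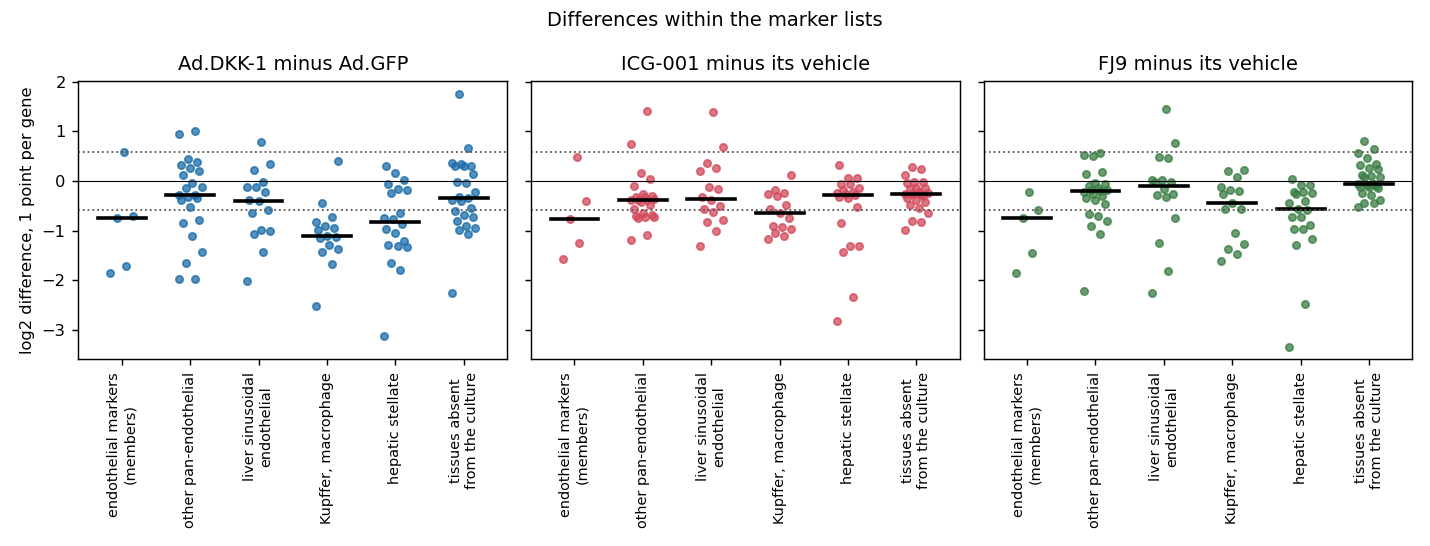
Log2 differences for the genes of 6 marker lists under Ad.DKK-1, ICG-001 and FJ9, with 1 point per measured gene, a black bar at the list's median and dotted lines at 1.5-fold. The median of the 5 endothelial markers lies between −0.76 and −0.74 in every panel, and that of the 24 other pan-endothelial markers between −0.38 and −0.21.

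Macrophage markers were counted in the same way, against the same all-gene shares (lower and higher: 22.6% and 14.5%, 16.3% and 10.3%, 12.3% and 10.6%). Of 15 measured Kupffer cell and macrophage markers, 13 were lower and 0 higher under Ad.DKK-1, 8 lower and 0 higher under ICG-001, and 5 lower and 0 higher under FJ9, with medians of −1.12, −0.65 and −0.44. Their mean level was 5.80 to 6.21 on treated and 6.70 to 6.87 on control arrays, and 11 of the 15 were under the level filter, among them the defining Clec4f, Adgre1, Cd163 and Marco. The largest differences were −2.51 for Adgre1 (Ad.DKK-1), −1.66 for the lysozyme gene Lyz2 (Ad.DKK-1) and −1.60 for the complement gene C1qa (FJ9). By limma 4 of 15 passed as lower, where 3.89% of all named genes did: Cd14 (adjusted p = 0.000785), Csf1r (0.0194), Itgam (0.0319) and Ptprc (0.0343). Itgam and Ptprc were under the level filter, and Itgam read 4.00 on the Ad.DKK-1 array, near the lowest deposited value. With median centring Cd14 and Csf1r still passed. These 4 are named because they passed, and only Cd14 also passed with each pair left out in turn. Flt1 is also known from monocytes and macrophages, and the part of these cells in the Erg and Flt1 results was not tested.

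Stellate cell markers differed from gene to gene, beside the same all-gene shares (lower and higher: 22.6% and 14.5%, 16.3% and 10.3%, 12.3% and 10.6%). Of 20 measured, 13 were lower and 0 higher under Ad.DKK-1, 6 lower and 0 higher under ICG-001, and 10 lower and 0 higher under FJ9, with medians of −0.82, −0.27 and −0.57. The limma test passed 8 of 20 as lower, where it passed 3.89% of all named genes. The ICG-001 median was −0.10 with median centring, and Des (0.33), Vim (0.05) and Tagln (0.06), named for this reason, read higher under ICG-001. Of the 8 calls, Hand2, Cygb and Hgf were lost with median centring (limma adjusted p = 0.0797, 0.108 and 0.0596) and without the DKK-1 pair (0.0735, 0.147 and 0.125), Hand2 also without the FJ9 pair (0.0852), and Lrat and Hand2 without the pair block (0.0628 and 0.0519). The pericyte gene Rgs5 (−3.12, −2.83 and −1.17), the retinol-esterifying enzyme gene Lrat (−1.31, −1.42 and −3.34) and lumican, Lum (−1.79, −1.32 and −2.47), had the list's largest differences. The part of this shift in the endothelial results was not tested. Among genes from tissues absent from the culture, 9 of 25 were lower and 2 higher under Ad.DKK-1, 4 lower and 0 higher under ICG-001, and 0 lower and 2 higher under FJ9, with medians of −0.34, −0.26 and −0.05. None of the 25 passed the limma test, where 3.89% of all named genes passed as lower and 2.55% as higher. Single differences in this list could still be large. Under Ad.DKK-1 the largest were −2.26 for Ins2 and 1.76 for Tg, beside −1.85 for Erg and −1.71 for Flt1.

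No ligand of Flt1 passed the limma test. Vegfa, the main angiogenic ligand, differed by −0.13, 0.35 and 0.61 in the order Ad.DKK-1, ICG-001 and FJ9, and Vegfb by 0.09, 0.06 and 0.74; both are given whatever their change because Flt1 binds them. Pgf, placental growth factor, differed by 0.25, 0.71 and −1.25, and its vehicle arrays differed by −1.22 (FJ9's minus ICG-001's). Over the 8 measured genes of VEGF ligands, co-receptors and Flt4, 3 were lower and 0 higher under Ad.DKK-1, 2 lower and 1 higher under ICG-001, and 3 lower and 2 higher under FJ9, with medians of −0.14, 0.21 and −0.12. Shares over all named genes were 22.6% lower and 14.5% higher, 16.3% and 10.3%, and 12.3% and 10.6%, in that order. The co-receptor Nrp1 differed by −1.14, 0.36 and −1.11.

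Vegfd, a lymphangiogenic ligand of VEGF receptor 3, was the member of this system that passed the limma test. It read 10.43, 10.34 and 8.63 on the Ad.DKK-1, ICG-001 and FJ9 arrays against 12.03, 11.88 and 11.31 on their controls, without overlap. The differences were −1.60, −1.54 and −2.67, and across pairs it fell by 1.94 on the log2 scale (limma adjusted p = 2.78e-05).

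Among the ligands of Tek, Angpt1, the activating angiopoietin that pericytes secrete, fell across pairs (limma −1.26, adjusted p = 0.00249). It read 9.73, 10.19 and 8.85 on the treated arrays against 10.80, 10.82 and 10.94 on their controls, differences of −1.07, −0.63 and −2.09. Angpt2, the context-dependent antagonist, differed by −0.58, −0.42 and −1.07, and Angpt4 by −0.71, −0.57 and 0.53, and neither passed. Against the other vehicle Angpt4 turned sign, to 0.24 for ICG-001 and −0.28 for FJ9. At 1.5-fold, 2 of these 3 genes were lower with Ad.DKK-1, 1 of 3 with ICG-001 and 2 of 3 with FJ9, and 0 were higher. All named genes had shares of 22.6% lower and 14.5% higher, 16.3% and 10.3%, and 12.3% and 10.6%, in that order.

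Eng, the co-receptor of the BMP9 pathway, was not analysed here, but genes around it were. Gdf2, which encodes BMP9, read 8.31, 8.52 and 6.97 on the Ad.DKK-1, ICG-001 and FJ9 arrays against 10.89, 10.04 and 9.81 on their controls. The differences were −2.59, −1.52 and −2.84, and it fell across pairs (limma −2.32, adjusted p = 1.62e-05). Acvrl1, which encodes the BMP9 receptor ALK1, was under the level filter, differed by −2.35, −0.32 and 0.01 and did not pass. The co-receptor gene Tgfbr3 (−1.39, −0.33 and −0.90) and Tgfb1, named because it passed, passed the limma test as lower (adjusted p = 0.0250 and 0.0244), but neither did with median centring (0.108 and 0.0988). Over the 18 measured genes of this axis, 7 were lower and 1 higher under Ad.DKK-1, 1 lower and 3 higher under ICG-001, and 7 lower and 0 higher under FJ9, with medians of −0.36, 0.07 and −0.31. The all-gene shares, in that order, were 22.6% lower and 14.5% higher, 16.3% and 10.3%, and 12.3% and 10.6%.

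Of the other transcription factors of endothelium, 0 of 14 measured passed the limma test as lower, where 3.89% of all named genes did. Ets2, an ETS factor expressed in many cell types, went the opposite way to Erg: it read 10.52, 9.29 and 10.76 on the treated arrays against 8.92, 8.42 and 8.45 on their controls, and rose across pairs (limma 1.60, adjusted p = 0.000386). Klf4 differed by 0.46, 1.33 and 0.60 and passed as higher (limma adjusted p = 0.0313), though not with median centring (0.0633). Sox7, of the SoxF group, differed by −1.21, −0.58 and 0.11. Fli1, the closest relative of Erg, differed by 0.15, −0.33 and −0.70, and is given because of that kinship. Over these 14 genes, 5 were lower and 2 higher under Ad.DKK-1, 3 lower and 3 higher under ICG-001, and 3 lower and 2 higher under FJ9, with medians of −0.30, −0.18 and −0.01. Beside them, the all-gene shares were 22.6% lower and 14.5% higher, 16.3% and 10.3%, and 12.3% and 10.6%.

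**Figure D4:**
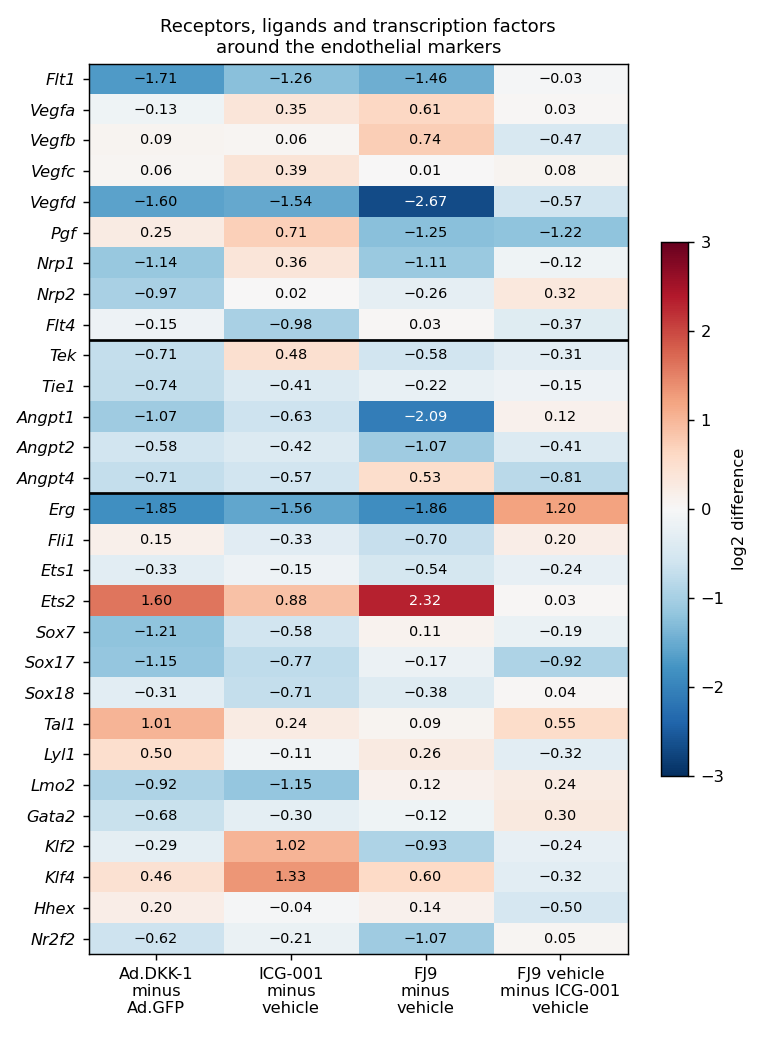
Log2 differences (printed in each cell and coloured from blue for lower to red for higher) of Flt1 with the measured VEGF ligands and co-receptors, Tek and Tie1 with the angiopoietins, and Erg with the other measured transcription factors, for the 3 treatments and for the vehicle of FJ9 minus the vehicle of ICG-001. Flt1, Vegfd, Angpt1 and Erg are among the genes lower in all 3 treatment columns. Ets2, from 0.88 to 2.32, is among those higher in all 3.

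The genes whose pattern over the 6 arrays was most like that of a marker were found by the root mean square distance between levels centred on each gene's own mean. Nearest to Erg were Irag1 (0.29), Mgarp (0.29) and Apol3l1 (0.30). They read higher on FJ9's vehicle than on ICG-001's by 0.96, 0.50 and 0.49, but both vehicle arrays entered the distance that picked them. Nearest to Flt1 were Sema4g (0.18), a semaphorin, F11r (0.20), the junctional adhesion molecule A gene, and Ano4 (0.22), which was under the level filter. Nearest to Cdh5 were the haemoglobin gene Hbb-b1 (0.12), also under the level filter, Gmfg (0.15) and Epha7 (0.15). These distances rest on 6 arrays and are a description alone.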

How the data were processed

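Labelled single-stranded DNA targets made from total RNA were hybridised to Affymetrix arrays. Per the submitters' processing notes, RMA and Expression Console produced the deposited log2 levels, with versions not given in the sources used here. They were used as deposited; the lowest value was 4.00, and no detection calls were used. Precision is limited by having 6 arrays.

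Gene names came from GEO's platform annotation, in which 15092 of 26988 probe sets had 1 symbol and 323 had several and stayed unnamed. These gave 14322 genes; where a gene had more than 1 probe set (497 genes), the one with the highest mean was kept. Entrez identifiers of the 5 measured members carried the same symbol in the GRCr8 gene table, which served for names alone. Genes at least 1.5-fold apart were counted with no level filter, since the choice of members had none; the filter (mean up to 6.39, 30% of genes) is an alternative and a description.

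Treated against control across the 3 pairs was fitted with limma 3.58.1 in R 4.3.3 (lmFit and eBayes with a trend, 2 residual degrees of freedom per gene, adjusted p under 0.05). Its recovery of known differences was tested on simulated data with spreads shuffled between genes. That test required only that median estimates lie near the differences put in. It set no condition on calls or false calls, so it does not check the p-values. The pairs come from the labels. Whether the pools share animals is not stated. The p-values measure only how far the 3 treated minus control differences disagree, with each gene's variance moderated by that of genes of similar level. They therefore rest on the spread of other genes too. The SDs over 3 arrays given with them include differences between pairs, which the block takes out. Members and lists were chosen with earlier results of these data known. Named are all members, the nearest patterns of 3 members, and up to 3 genes of each list not described by counts. Those 3 have the largest difference in any treatment. The hepatocyte, cholangiocyte, lymphocyte, platelet, mesothelial and absent-tissue lists are described by counts, with few genes named. Other genes are named for passing or for a reason given with them. The alternatives were other scalings, probe set averaging, the level filter, 16 added to linear values, a 2-fold threshold, other vehicles, no block, no trend and each pair left out. No sequences were used.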

Additional observations from a re-analysis of the deposited data

How the results depend on the processing

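Erg and Flt1 passed the limma test under all 10 alternatives run, with adjusted p from 0.000408 to 0.0136 for Erg and 7.02e-05 to 0.00665 for Flt1, and the number of markers passing stayed at 2 (range 2 to 2 with each pair left out). Without 1 pair, the mean difference ran from −1.85 to −1.71 for Erg and from −1.58 to −1.36 for Flt1. Tek, Tie1 and Cdh5 passed under none of them, with adjusted p of 0.200 or more. With no replicate block the adjusted p was 0.0136 for Erg and 0.00408 for Flt1, and 282 lower and 162 higher genes passed over all named genes, where 557 and 365 passed with it. Without the eBayes trend 309 and 136 passed, and with the lowest 30% of genes left out 503 and 357.

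Of the counts of markers past 1.5-fold, the 4 lower under Ad.DKK-1 became 2 with repeated quantile normalization and 2 at a 2-fold threshold. The 1 higher there (Cdh5) became 0 with the level filter, 0 with 16 added to linear values and 0 at 2-fold. The 3 lower under ICG-001 became 2 with repeated quantile normalization, the level filter, 16 added to linear values and the 2-fold threshold. The 3 lower under FJ9 ran from 2 to 4 over the alternatives. The 0 higher under ICG-001 became 1 (Tek) with median centring, with cyclic loess, with the other vehicle and with the mean of both vehicles; the last was chosen after seeing the data. With that mean, Erg differed by −2.16 for ICG-001 and −1.26 for FJ9. Against the other vehicle, Notch4 turned to 0.17 under FJ9, and Angpt4, short of 1.5-fold in both, to 0.24 under ICG-001 and −0.28 under FJ9. The cause was not tested.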

Other observations

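Further cell types that a stellate preparation can carry along were counted the same way. All-gene shares are as above, in lower and higher pairs: 22.6% and 14.5%, 16.3% and 10.3%, 12.3% and 10.6%. Of 13 measured hepatocyte markers, 3 were at least 1.5-fold lower and 2 higher under Ad.DKK-1, 4 lower and 1 higher under ICG-001, and 2 lower and 0 higher under FJ9, with medians of 0.03, −0.34 and 0.05. Of 4 cholangiocyte markers, 0, 2 and 0 were lower and none higher. Of 7 lymphocyte markers, 1, 3 and 0 were lower and 1, 0 and 0 higher. Of 4 platelet and megakaryocyte markers, 1, 0 and 2 were lower and 1, 0 and 0 higher. In each of these 4 lists, 0 genes passed the limma test in either direction, where 3.89% of all named genes passed as lower and 2.55% as higher. Lists of 4 to 13 genes are too short to be told apart from those shares. Of 3 mesothelial markers, 1, 2 and 1 were lower and 0 higher in any treatment, and Wt1, a transcription factor of mesothelium, passed the limma test as lower (−1.77, −1.44 and −0.91, adjusted p = 0.00121).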
